A study of Mus musculus with 18 samples.

Results

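The genes described here are the E protein genes Tcf3, Tcf4 and Tcf12 and the Id genes Id1, Id2 and Id3. They were taken by name, as a family of partners, with earlier results of these data known, and make up 6 of the 55487 genes counted. Their mRNA was measured by RNA sequencing in 18 libraries of WEHI-231 cells, a mouse line of immature B lymphoma cells. Parental cells ("wt" in the labels) and 2 clones with mutated TFEB, #A-59 and #B-20, were each left unstimulated (0 h) or treated for 6 or 18 h with 10 µg/ml anti-IgM F(ab')2 fragments, which ligate the B cell receptor (BCR). Each of the 9 groups had 2 libraries. The clones were made with CRISPR ribonucleoproteins aimed at Tfeb, each grown from 1 cell, so that the TFEB mutation cannot be told apart from other traits of that clone. TFEB itself is a helix-loop-helix protein of a different class, with a leucine zipper, that acts on lysosomal and immune genes.

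E proteins are basic helix-loop-helix transcription factors. They bind DNA as dimers at a short motif called the E-box, spelled CANNTG, and drive genes of early B cell development, immunoglobulin gene recombination and the B cell receptor complex. Id proteins have the helix-loop-helix part for pairing but no basic part for binding DNA, so that an E protein paired with an Id protein is held off its sites. In lymphocytes, antigen receptor signals raise Id3 through the ERK kinases and Egr factors, and BMP signals raise Id genes through Smad1 and Smad5. Gene counts do not separate the splice forms of Tcf3, nor measure protein, dimers or DNA binding.

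Tcf3 (ENSMUSG00000020167) lies at chr10:80409541-80433976 on the minus strand of GRCm38, and Tcf12 (ENSMUSG00000032228), which encodes HEB, at chr9:71844252-72111893 on the minus strand. Id1 (ENSMUSG00000042745) is at chr2:152736251-152737410 on the plus strand, Id2 (ENSMUSG00000020644) at chr12:25093799-25096092 on the minus strand and Id3 (ENSMUSG00000007872) at chr4:136143822-136145392 on the plus strand. The values are counts over all exons of a gene, UTRs included. Because the libraries were not stranded, reads from annotated antisense genes would be counted with Id1, Id2, Id3 and Tcf4, which share 243, 1262, 212 and 742 exon bases with such genes. No annotated gene shares exon bases with Tcf3 or Tcf12.

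The 250 bases before the RefSeq start sites (GRCm38.p6) were searched for E-boxes, because E proteins act through them and Id genes are among the genes they act on. A CANNTG motif was found in 66.2% of the 32851 windows of this kind in the annotation, so that its presence sets no gene apart. An E-box of each of Id2, Tcf3 and Tcf12 is printed in capitals with up to 12 bases on each side, 5′ to 3′ on the strand of the gene.
Id2, 196 bases before the start, chr12:25096271-25096300: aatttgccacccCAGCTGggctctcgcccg
Tcf3, 54 bases before the start, chr10:80433672-80433701: agtgggcgtggtCACTTGggggcgtggctt
Tcf12, 240 bases before the first start, chr9:72112042-72112069: agatgctgccCAGCTGcgtccccgtcgc
The Id3 window (chr4:136143572-136143821) and the window of the third Tcf12 start held no match to CANNTG. The palindrome CAGCTG, present at Id2 and at the first Tcf12 start, occurs in 13% of all windows. None of these windows held CACGTG (6.02% of all windows), the core to which TFEB-type proteins bind, or GTCTAGAC (0.167%), a Smad motif, and the Id2 window held 1 match to GGCGCC (9.59%), a GC-rich Smad motif. GENCODE transcripts with earlier starts run through the whole window in 4 of the 6 annotated Id2 transcripts and 2 of the 6 annotated Id3 transcripts, and 52 annotated Tcf3 transcripts hold the printed Tcf3 site, so that these letters are upstream of only some starts.

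The 18 libraries held 11223588 to 29655262 counts, and no pair of replicates agreed within sampling noise. Tfeb, the targeted gene, had a mean of 81.0 CPM (counts scaled to library size with edgeR's TMM factors) in unstimulated parental cells, against 25.7 CPM for #A-59 and 36.7 CPM for #B-20, and was lower in both clones at each time (adjusted p of 2.44e-09 to 1.67e-05). All 10 B cell markers were well expressed in each library, among them Cd79a with 794 to 1940 CPM and Ebf1 with 63.3 to 158 CPM. Of the 8 T cell markers 7 stayed at 9 counts or fewer in each library and Lck had 41.7 to 147 CPM. Of the 8 myeloid markers Lyz2 and Cd14 had at most 1 count, and 4 passed the filter on low counts, among them Itgam with 0.306 to 26.3 CPM. Their summed level was 3.31 to 12.5 CPM in parental libraries, 8.57 to 29.8 CPM in #A-59 and 3.59 to 8.95 CPM in #B-20. Of the 6 plasma cell markers Prdm1 had 0 to 5 counts and Xbp1 94.5 to 235 CPM, while the means of Mzb1 lay between 5.65 and 7.62 CPM in parental cells, between 53.8 and 71.9 CPM in #A-59 and between 1.82 and 2.32 CPM in #B-20. The summed plasma cell markers ranged from 216 to 363 CPM in parental libraries, from 211 to 332 CPM in #A-59 and from 204 to 295 CPM in #B-20. B cell and plasma cell markers that passed the filter were called in both directions in stimulated cells and in clones against parental cells. The myeloid markers called in these comparisons were all higher. Lck was called higher in stimulated cells and lower in #B-20 than in parental cells. The part of the markers in the results was not tested.

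Of the 6 genes, 5 had enough reads for testing, and Id1 did not. In the following, "rose", "fell" and "changed" mean an adjusted p under 0.01 (edgeR quasi-likelihood F-test, Benjamini-Hochberg over the 15318 genes tested), and a DEG also has a log2 fold change beyond 1 in either direction. Fold changes are log2 values with their standard error (SE).

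Tcf3, Tcf4, Tcf12 and Id3 were well expressed, Id2 was low and Id1 was close to absent. Per kilobase of the longest transcript, unstimulated parental cells had 78.7 ± 4.01 CPM of Tcf3 (SD, n = 2), 31.2 ± 1.60 of Tcf12, 31.1 ± 4.58 of Id3 and 29.7 ± 0.0233 of Tcf4. Tcf12, Id3 and Tcf4 were thus not separated beyond their spread on this scale. Id2 stood at 0.455 ± 0.0518 and Id1 at 0.0880 ± 0.00836 CPM per kilobase. Per kilobase of all annotated exons, which adds the exons outside the longest transcript, Tcf3 was again first with 60.5 ± 3.09 CPM, and Id3 with 22.2 ± 3.27 stood above Tcf12 with 10.9 ± 0.558 and Tcf4 with 9.49 ± 0.00744. The place of Id3 among the E protein genes therefore depends on the length used, while the order Tcf3, Id2, Id1 does not.

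**Figure D1:**
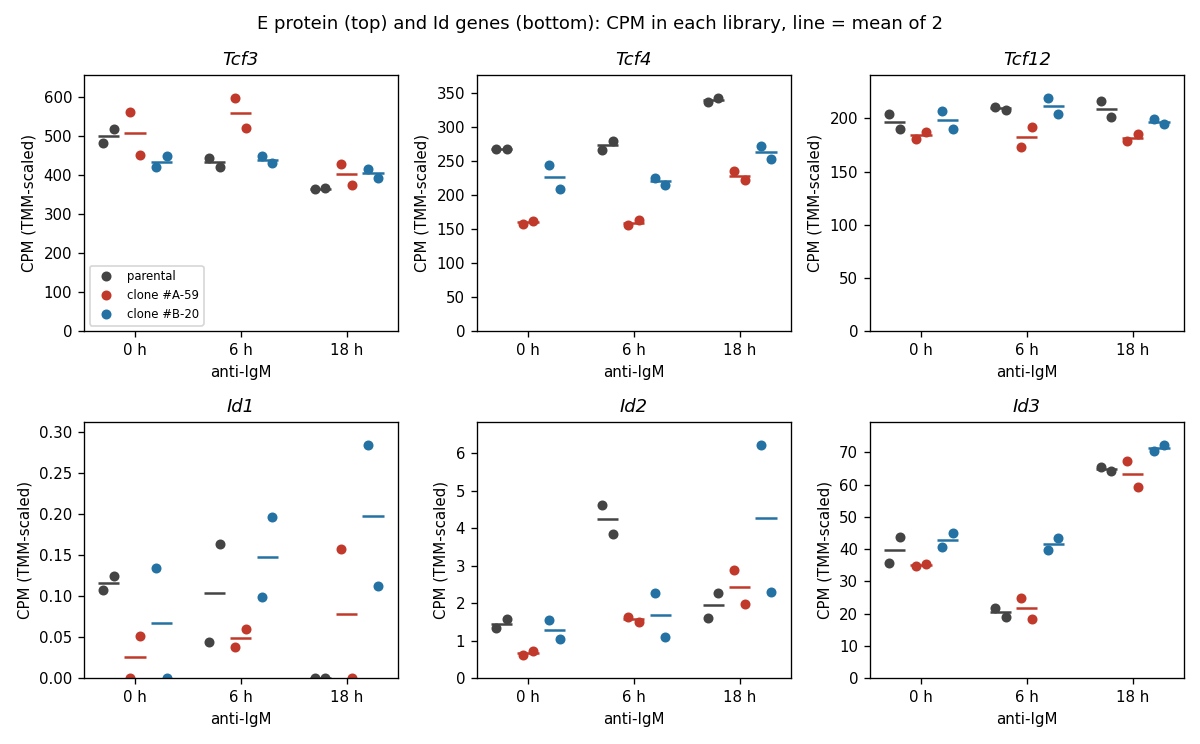
Level in TMM-scaled CPM of each gene in each library, by hours of anti-IgM, with a separate vertical scale for each gene; points are single libraries in parental cells (grey), #A-59 (red) and #B-20 (blue), and lines are means of 2. Id3 stood at 18.5 to 25 CPM in the 6 h libraries of parental cells and #A-59 and at 39.7 and 43.6 CPM in those of #B-20.

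Id3, the inhibitor that made up at least 89.8% of the summed Id mRNA in each library on either length scale, first fell and then rose in parental cells. The parental libraries had 35.7 and 43.9 CPM at 0 h, then 21.9 and 18.9 CPM at 6 h and finally 65.4 and 64.3 CPM at 18 h. The 3 times did not overlap. At 6 h the change was -0.96 ± 0.13 (adjusted p = 4.32e-05) and at 18 h it was 0.70 ± 0.13 (adjusted p = 0.00017). The rise from 6 to 18 h was 1.67 ± 0.13 (adjusted p = 1.06e-08), a DEG. Each library holds the RNA of many cells, so that a change in the share of cells that express a gene and a change in RNA per cell cannot be told apart. The rise at 18 h stood at 0.53 with an adjusted p of 0.0117 without replicate 1 of the untreated parental cells.

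In clone #A-59 Id3 followed the same course. Its libraries had 34.7 and 35.5 CPM at 0 h, then 25 and 18.5 CPM at 6 h and finally 67.4 and 59.4 CPM at 18 h, again without overlap between times. Id3 fell by 0.68 ± 0.13 at 6 h on the log2 scale (adjusted p = 0.00225) and rose by 0.85 ± 0.13 at 18 h (adjusted p = 2.67e-05). The fall at 6 h lost its call without either untreated #A-59 library (-0.70 with an adjusted p of 0.0106 and -0.66 with 0.023) and when the model held only the groups compared (-0.68, adjusted p = 0.0817). Between #A-59 and parental cells Id3 differed by -0.18, 0.11 and -0.03 at 0, 6 and 18 h, and none of these passed the test.

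In clone #B-20 the fall at 6 h was not seen. The #B-20 libraries had 40.8 and 44.9 CPM of Id3 at 0 h, then 39.7 and 43.6 CPM at 6 h and finally 70.3 and 72.3 CPM at 18 h. The 0 h and 6 h libraries overlapped, and both 18 h libraries were higher than all 4 of these. The change at 6 h was -0.04 ± 0.13 (adjusted p = 0.921), while the rise at 18 h, 0.73 ± 0.13 (adjusted p = 0.000198), stood beside 0.70 in parental cells and 0.85 in #A-59. At 6 h Id3 was thereby higher in #B-20 than in parental cells by 1.03 ± 0.13 (adjusted p = 9.42e-06), a DEG, and higher than in #A-59 by 0.92 ± 0.13 (adjusted p = 4.45e-05). Both differences passed the adjusted p in each of the 12 alternative fits made for each of these 2 comparisons. The difference from parental cells lay between 0.91 and 1.15 in these fits, so that its DEG call did not hold in each.

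The direct test of whether the 6 h response of Id3 differs between #B-20 and parental cells gave a difference of 0.92 ± 0.18, with an adjusted p of 0.0232. The unadjusted p was 8.49e-05, and 0.183% of all genes tested passed an adjusted p of 0.01 in this comparison. The difference passed with DESeq2 (0.91, adjusted p = 0.00123), without a filter on low counts (0.91, adjusted p = 4.03e-05) and with a correction for GC content (0.89, adjusted p = 0.00411). It did not pass in any of the 8 fits that left out 1 of its libraries, in which it lay between 0.75 and 1.06. For #A-59 the same difference was 0.29 ± 0.18 (adjusted p = 0.524). At 18 h the response of Id3 differed from the parental one by 0.15 for #A-59 and 0.03 for #B-20, and neither passed.

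**Figure D2:**
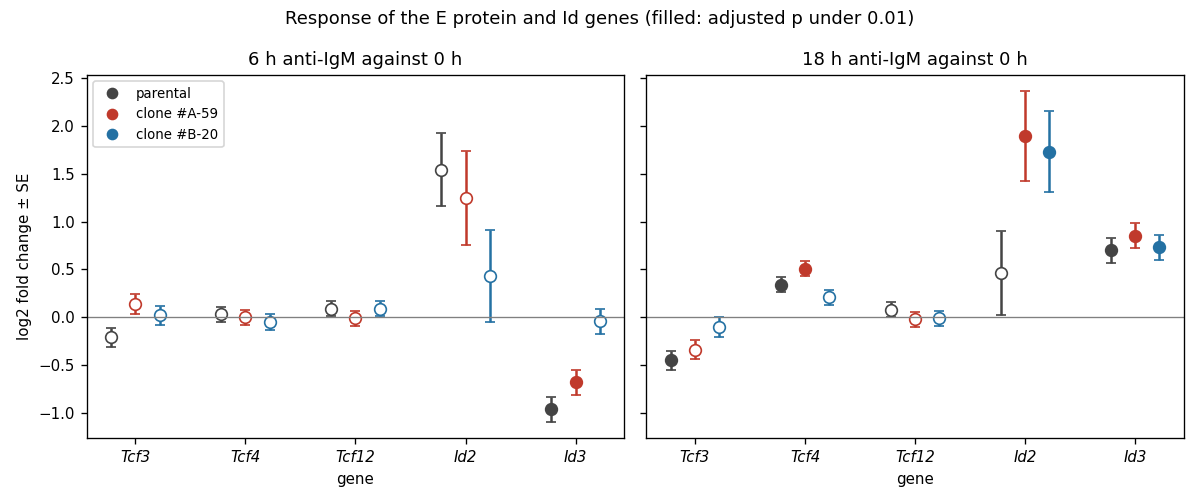
log2 fold change ± SE of the 5 tested genes at 6 h (left) and 18 h (right) of anti-IgM against 0 h in each genotype; filled points have an adjusted p under 0.01. Id3 lay at -0.96 and -0.68 in parental cells and #A-59 at 6 h and at -0.04 in #B-20, and at 0.70, 0.85 and 0.73 at 18 h.

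Id2, which is best known for holding back B cell fate in other lymphoid lineages, was low throughout, with 14 to 175 counts in a library. Parental libraries had 1.34 and 1.57 CPM at 0 h, then 4.63 and 3.85 CPM at 6 h and finally 1.61 and 2.28 CPM at 18 h. Both 6 h libraries lay above the other 4. The change at 6 h was 1.54 ± 0.38 with an adjusted p of 0.0107, just short of the threshold. DESeq2 gave 1.54 with an adjusted p of 0.00514, and the fit on only the groups compared 1.53 with 0.000339. The change passed in 5 of 12 alternative fits and in 0 of the 4 that left out 1 library, where the adjusted p lay between 0.0339 and 0.101.

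The clones had their highest Id2 values at 18 h. #A-59 had 0.609 and 0.725 CPM at 0 h, then 1.63 and 1.51 CPM at 6 h and finally 2.88 and 1.99 CPM at 18 h, and Id2 rose at 18 h by 1.89 ± 0.47 (adjusted p = 0.0036). #B-20 had 1.54 and 1.05 CPM, then 2.26 and 1.11 CPM, then 6.22 and 2.31 CPM, and Id2 rose at 18 h by 1.73 ± 0.42 (adjusted p = 0.00381). Both were DEGs, and each call could be lost by leaving out 1 library. The rise passed the adjusted p in 9 of 12 alternative fits for #A-59 and in 8 of 12 for #B-20. Without replicate 1 of #B-20 at 18 h, which held 175 counts of Id2, the rise was 0.82 with an adjusted p of 0.146, and without replicate 1 or 2 of the untreated #B-20 cells the adjusted p was 0.0178 and 0.0589. In #A-59 the call was lost without replicate 1 or 2 at 0 h (adjusted p of 0.046 and 0.0168) and without replicate 1 at 18 h (0.0552).

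At 6 h Id2 was lower in #A-59 than in parental cells, with a log2 difference of -1.42 ± 0.39 (adjusted p = 0.00858), a DEG, and in #B-20 the difference was -1.28 ± 0.39 (adjusted p = 0.0239). None of the parental libraries overlapped with those of either clone at this time. With 2 libraries per group, genes that were not called also separated in this way, such as Tcf12 between #A-59 and parental cells. The #A-59 difference passed the adjusted p in 7 of 12 alternative fits, and its call was lost without each of its 4 libraries in turn (-1.56 to -1.29). At 18 h the difference was 0.29 for #A-59 (adjusted p = 0.717) and 1.1 for #B-20 (adjusted p = 0.0519). None of the 4 differences in response of Id2 passed, with adjusted p-values of 0.38 to 0.895.

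Id1 was counted 0 to 8 times in a library and was not tested. It had 3 and 3 counts in untreated parental cells, 1 and 4 at 6 h and 0 and 0 at 18 h, where a count of 0 allows up to 3. In #A-59 no library had more than 3 counts, and in #B-20 the counts were 2 and 0, 2 and 3, and 8 and 3. These values do not separate the groups at this depth. With the filter on low counts removed, 0 of 22 comparisons of Id1 passed in edgeR, 4 had an unadjusted p under 0.05, and the smallest adjusted p was 0.0779.

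Tcf3, whose products are the main E proteins of B cells, went down modestly with stimulation. Parental libraries had 481 and 517 CPM at 0 h, then 443 and 421 CPM at 6 h and finally 364 and 366 CPM at 18 h. The times did not overlap. The changes at 6 h (-0.21, adjusted p = 0.209) and from 6 to 18 h (-0.24, adjusted p = 0.0518) did not pass. The fall at 18 h against 0 h was -0.45 ± 0.10 (adjusted p = 0.00125). This call was lost without replicate 2 at 0 h (-0.43, adjusted p = 0.012) and without replicate 2 at 18 h (-0.48, adjusted p = 0.0106).

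In #A-59 Tcf3 stood at 560 and 452 CPM at 0 h, then 596 and 519 CPM at 6 h and finally 427 and 375 CPM at 18 h. The 0 h and 6 h libraries overlapped and the 18 h libraries were lower than both. From 6 to 18 h Tcf3 fell by 0.47 ± 0.10 (adjusted p = 0.000853), and from 0 to 18 h the change was -0.34 ± 0.10 (adjusted p = 0.0108). The first of these lost its call without replicate 2 at 18 h (-0.39, adjusted p = 0.0191) and when only the groups compared were fitted (-0.48, adjusted p = 0.0213). In #B-20 Tcf3 kept to a narrow range, 391 to 447 CPM over all 6 libraries, and its change at 18 h was -0.10 ± 0.10 (adjusted p = 0.47). With GC content corrected, Tcf3 fell in #B-20 at 18 h (-0.25, adjusted p = 0.00741) and from 6 to 18 h (-0.25, adjusted p = 0.00848).

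The course of Tcf3 in the clones was not shown to differ from that in parental cells. The 4 differences in response were 0.12 to 0.35 with adjusted p-values of 0.263 to 0.982. Against parental cells Tcf3 was higher in #A-59 at 6 h by 0.37 ± 0.10 (adjusted p = 0.00782). The call held in 8 of 12 alternative fits and was lost without either parental 6 h library or replicate 1 of #A-59 (0.26 to 0.40). The other 5 differences between a clone and parental cells lay between -0.20 and 0.15.

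Tcf4 (ENSMUSG00000053477, chr18:69343429-69687967 on the plus strand), an E protein of plasmacytoid dendritic cells and mature B cells, rose late in parental cells and #A-59. It is not Tcf7l2, a Wnt pathway gene that has also been called TCF4. Parental libraries had 268 and 268 CPM at 0 h, then 267 and 280 CPM at 6 h and finally 337 and 343 CPM at 18 h. Both 18 h libraries were above the other 4. The rise at 18 h was 0.34 ± 0.08 (adjusted p = 0.0026). It was lost without each of the 4 libraries in turn (0.31 to 0.32, adjusted p of 0.0289 to 0.0397) and without the filter on low counts (0.27, adjusted p = 0.0388). In #A-59 the values were 158 and 163 CPM, then 156 and 164 CPM, then 236 and 222 CPM, and Tcf4 rose at 18 h by 0.51 ± 0.08 (adjusted p = 7.24e-05), a call that held in each of 12 alternative fits. In #B-20, with 245 and 210 CPM, 226 and 215 CPM, and 273 and 254 CPM, the change of 0.21 ± 0.08 did not pass (adjusted p = 0.0575). With GC content corrected it was 0.35 and passed (adjusted p = 0.00144). The 4 differences in response of Tcf4 between a clone and parental cells lay between -0.13 and 0.17, with adjusted p-values of 0.675 to 1.

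Tcf4 was the only tested member called between a clone and parental cells at more than 1 time. In #A-59 it was lower at 0, 6 and 18 h, with log2 differences of -0.74 ± 0.08, -0.77 ± 0.08 and -0.57 ± 0.08 (adjusted p = 2.68e-06, 1e-06 and 6.37e-05), which is 1.67-fold, 1.71-fold and 1.49-fold. All 6 libraries of #A-59 were below all 6 of parental cells. Each of these 3 calls held in each of its 12 alternative fits, and none reached the fold limit of a DEG. In #B-20 the differences were -0.24 ± 0.08, -0.31 ± 0.08 and -0.37 ± 0.08 (adjusted p = 0.0578, 0.0105 and 0.00309), so that only the one at 18 h passed. That call was lost without either parental 18 h library or replicate 2 of #B-20 (adjusted p of 0.0252 to 0.0464) and without the filter on low counts (-0.29, adjusted p = 0.0411).

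The mutant clones differed from each other in Tcf4 as well. It was higher in #B-20 than in #A-59 by 0.51 ± 0.08 at 0 h (adjusted p = 0.000304) and by 0.46 ± 0.08 at 6 h (adjusted p = 0.000431), and by 0.21 ± 0.08 at 18 h (adjusted p = 0.0772). The call at 0 h was lost without replicate 1 of untreated #B-20 (0.39, adjusted p = 0.0161), and that at 6 h when only the groups compared were fitted (0.46, adjusted p = 0.0328). Gene GC content moved with these comparisons over all genes. The log2 difference between #B-20 and #A-59 had a Spearman rho of -0.399 with GC content at 0 h, -0.453 at 6 h and -0.0701 at 18 h, and that between #B-20 and parental cells -0.344, -0.271 and -0.0622. The GC content of the longest transcript is 42.1% for Tcf4 and 55.6% for Id3. With GC content corrected, Tcf4 in #B-20 differed from parental cells by -0.39 at 0 h (adjusted p = 0.00115) and by -0.44 at 6 h (adjusted p = 0.000254), and its difference between clones at 6 h was 0.20 (adjusted p = 0.0612).

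**Figure D3:**
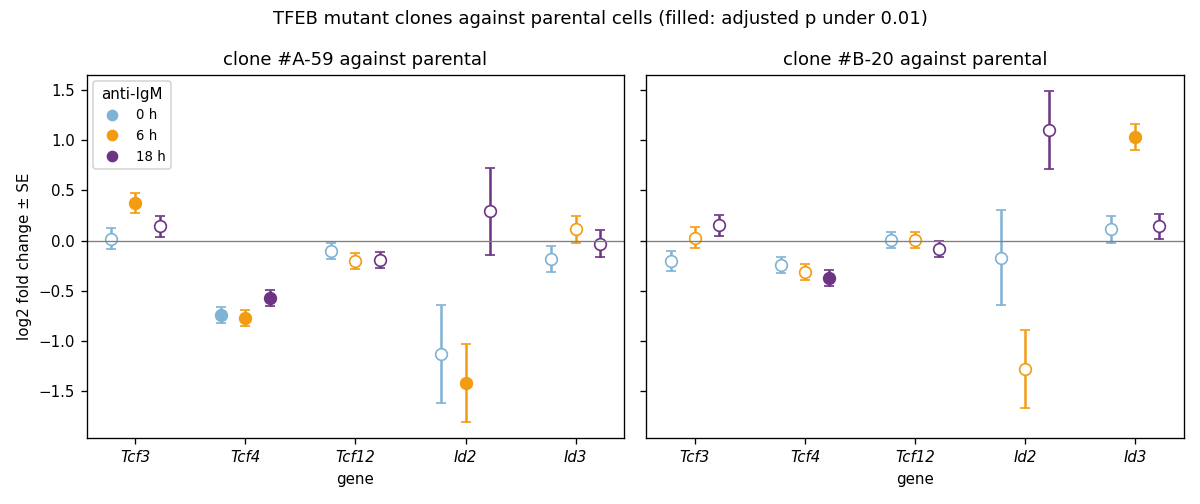
log2 fold change ± SE of the 5 tested genes in clone #A-59 (left) and #B-20 (right) against parental cells at 0, 6 and 18 h of anti-IgM; filled points have an adjusted p under 0.01. Tcf4 lay at -0.74, -0.77 and -0.57 in #A-59, and Id3 at 1.03 in #B-20 at 6 h.

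Tcf12 was flat. It ranged from 173 to 219 CPM over the 18 libraries, a 1.26-fold range, and 0 of its 22 comparisons passed in edgeR or in DESeq2. In edgeR its log2 differences lay between -0.20 and 0.21, and 3 had an unadjusted p under 0.05. All of these 3 involved #A-59, whose libraries had 173 to 192 CPM against 190 to 216 CPM in parental cells.

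Counted over the family, stimulation changed few members at 6 h and more at 18 h, as it did genes at large. At 6 h 1 of 5 tested members changed in parental cells, where 7.34% of all genes tested did, 1 in #A-59 (6.14%) and 0 in #B-20 (1.29%). In #B-20 none had an unadjusted p under 0.05 and DESeq2 called 0. At 18 h the counts were 3 for parental cells (32.6% of all genes), 3 for #A-59 (31.8%) and 2 for #B-20 (22.8%). Between a clone and parental cells, 1, 3 and 1 members differed in #A-59 at 0, 6 and 18 h, against 9.56%, 22.7% and 10.4% of all genes, and 0, 1 and 1 in #B-20, against 10.7%, 14.2% and 14.2%. At 0 h in #B-20 1 member had an unadjusted p under 0.05, and DESeq2 called 0. From 6 to 18 h, 2 members changed for parental cells (38.3% of all genes), 3 for #A-59 (31.9%) and 1 for #B-20 (22.6%), where DESeq2 called 3. With 5 genes tested, these shares cannot be set apart from those of all genes.

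DEG calls were fewer. Id3 was the DEG from 6 to 18 h in parental cells, where 13.5% of all genes were DEGs, and in #A-59 (9.02%). Id2 was the DEG at 18 h against 0 h for #A-59 (8.76%) and for #B-20 (4.8%), and at 6 h between #A-59 and parental cells (7.91%). Id3 was the DEG between #B-20 and parental cells at 6 h (6.73%). Between the clones, 1 member (Tcf4) differed at 0 h against 8.41% of all genes, 2 (Tcf4 and Id3) at 6 h against 18.7%, and 0 at 18 h against 16.2%, where 2 had an unadjusted p under 0.05 and DESeq2 called 0. Differences in response between a clone and parental cells were called for 0 members by edgeR, with 4 of 20 at an unadjusted p under 0.05, and for 1 (Id3 in #B-20 at 6 h) by DESeq2. Over all genes 0.646% and 0.0392% were called for #A-59 at 6 and 18 h, and 0.183% and 0.222% for #B-20. The responses of a genotype share their 0 h libraries, and the comparisons of both clones share the parental libraries.

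The balance of E protein to Id mRNA followed Id3, which made up most of the summed Id mRNA, so that the ratio largely restates the Id3 values. As a description, the summed CPM per kilobase of the longest transcript of the 3 E protein genes was divided by that of the 3 Id genes. The ratio was 4.85 and 4.04 in the untreated parental libraries, 7.14 and 8.09 at 6 h, and 2.49 and 2.5 at 18 h. In #A-59 it was 4.92 and 4.24, then 6.90 and 8.69, then 2.27 and 2.40. In #B-20 it was 3.88 and 3.49, then 4.09 and 3.59, then 2.23 and 2.11. The 6 h libraries of parental cells and #A-59 were above all others, and all 18 h libraries were below all others. Per kilobase of all exons the ratios were lower, between 1.64 and 7.34, with the same separation of libraries. The summed E protein level itself lay between 113 and 141 CPM per kilobase of the longest transcript in all libraries, and the summed Id level between 15 and 57.4.

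**Figure D4:**
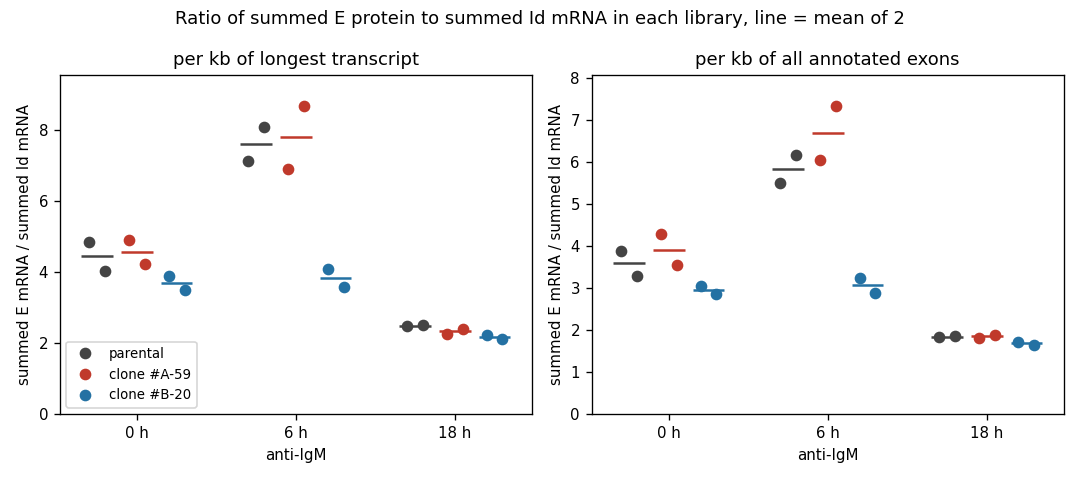
Ratio of summed E protein mRNA (Tcf3, Tcf4, Tcf12) to summed Id mRNA (Id1, Id2, Id3) in each library by hours of anti-IgM, per kilobase of the longest transcript (left) and of all annotated exons (right); points are libraries and lines are means of 2. The ratio was 6.9 to 8.69 in the 6 h libraries of parental cells and #A-59 and 3.59 to 4.09 in those of #B-20 (left).

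The share of Tcf3 in the E protein pool is given as a description, with no test. Tcf3 made up 44.5 to 57.7% of the summed E protein mRNA in parental libraries, 52.4 to 67.8% in #A-59 and 51.1 to 56.9% in #B-20, per kilobase of the longest transcript. Per kilobase of all exons its share was 65 to 75.9%, 71.6 to 82.8% and 70.6 to 75.1%. In parental cells the share of Tcf3 went from 55 and 57.7% at 0 h to 44.5 and 45.3% at 18 h on the first scale, as Tcf3 fell and Tcf4 rose.

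Over the 18 libraries, the log2 CPM of Tcf3 and Tcf4 ran against each other (Pearson's r = -0.718) and so did those of Tcf3 and Id3 (r = -0.606), while Tcf4 and Tcf12 ran together (r = 0.64). Id2 and Id3 were nearly unrelated (r = 0.0869). These values describe 18 libraries that fall into 9 groups and share their scaling. Among the 12480 genes with a mean of at least 1 CPM, the patterns most like that of Id3 were those of Lrba (r = 0.951), Malt1 (0.94), which encodes a protease of the antigen receptor to NF-κB pathway, and Bend5 (0.933). For Tcf4 they were Mapkapk2 (0.966), a kinase downstream of p38, Zdhhc17 (0.959) and Ypel2 (0.948). For Tcf3 they were Nfkbib (0.923), an inhibitor of NF-κB, Ptbp1 (0.916), a splicing regulator, and Men1 (0.913). For Tcf12 they were Arl15 (0.896), Dzip3 (0.89) and Zfp101 (0.887), and for Id2 Cep97 (0.86), 1700029M20Rik (0.847) and Dnmt3a (0.824).

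Of 24 B cell genes known as targets of E proteins, 22 were matched by symbol and 18 tested. In parental cells 2 rose and 5 fell at 6 h (median log2 change -0.21, against 0.01 over all genes tested, of which 7.34% were called), and 9 rose and 2 fell at 18 h (0.51, against 0.04, with 32.6% called). In #A-59 edgeR called 0 at 6 h, with 10 at an unadjusted p under 0.05 and 2 called by DESeq2, and 9 rose and 2 fell at 18 h, where 31.8% of all genes were called. In #B-20 1 fell at 6 h (1.29% of all genes called) and 9 rose at 18 h (22.8%). Among those that fell in parental cells at 6 h, named here after their values were seen, were Pax5 (-0.89), Cd79b (-0.62), Spib (-0.45) and Cd79a (-0.37), genes of B cell identity and of the BCR complex. Of the 10 B cell markers, a list that shares genes with this one, 5 fell in parental cells at 6 h and 7 rose at 18 h. The summed level of the 10 markers ranged from 6890 to 12900 CPM over the parental libraries, from 8870 to 14500 CPM over those of #A-59 and from 7520 to 12000 CPM over those of #B-20, and none of them was at 0. Their part in the course of Id3 was not tested.

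In #A-59, 1, 9 and 2 of the 18 tested targets were higher than in parental cells at 0, 6 and 18 h. At these times 3, 6 and 3 were lower, and 9.56%, 22.7% and 10.4% of all genes were called. In #B-20 3, 5 and 1 were higher and 4, 5 and 3 lower, beside 10.7%, 14.2% and 14.2% of all genes. Some targets stood apart in both clones. Gfi1, a transcriptional repressor, had means of 5.29, 11.5 and 3.13 CPM in parental cells at 0, 6 and 18 h and 0.549 to 2.97 CPM in the clones, and was lower in all 6 comparisons (log2 -2.55 to -1.53). Cxcr4, a chemokine receptor, had means of 29.4 to 70.8 CPM in parental cells and 5.23 to 16.1 CPM in the clones, and was lower in all 6 (log2 -2.52 to -1.64). Myb, a factor of immature blood cells, fell in parental cells at 18 h by 1.03 on the log2 scale (adjusted p = 1.58e-06) and was lower in both clones at 0 and 6 h (log2 -0.91 to -0.68). Foxo1, which E proteins help to switch on, rose in parental cells at 6 h by 0.87 (adjusted p = 0.00151) and by 1.04 at 18 h (adjusted p = 8.56e-05). At 6 h its change was -0.11 in #A-59 (adjusted p = 0.732) and 0.17 in #B-20 (adjusted p = 0.739), and at 18 h it rose in both, by 0.70 (adjusted p = 0.00262) and 0.83 (adjusted p = 0.00154). Socs3, a feedback inhibitor of cytokine signals, rose in parental cells at 18 h by 1.68 (adjusted p = 0.00227), from a mean of 0.587 to 1.9 CPM.

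The BMP and Smad genes that act before the Id genes were represented by 20 genes, of which 15 were tested. At 6 h edgeR called 0 in each genotype. With an unadjusted p under 0.05 there were 5 for parental cells, 5 for #A-59 and 2 for #B-20, and DESeq2 called 1, 0 and 0. Against parental cells 1, 3 and 2 were higher and 1, 3 and 1 lower in #A-59 at 0, 6 and 18 h, and 1 was higher and 2 to 3 lower at each time in #B-20. The shares of all genes called were 9.56%, 22.7% and 10.4% for #A-59 and 10.7%, 14.2% and 14.2% for #B-20. Smad1, which passes on BMP signals, had 534 to 844 CPM in the 6 parental libraries and 0.151 to 3.14 CPM, or 4 to 48 counts, in the 12 libraries of the clones. Smad5, named after its values were seen, had means of 58.6 to 74.2 CPM over all groups of parental cells and clones. Bmpr2, a receptor subunit, was higher in both clones at each time, by 1.40 to 2.68, with means of 6.91 to 9.37 CPM in parental cells and 20.3 to 43.9 CPM in the clones. Id3 in untreated #A-59 and #B-20 differed from parental cells by -0.18 (adjusted p = 0.418) and 0.11 (adjusted p = 0.625). Whether the levels of Smad1, Smad5 or Bmpr2 bear on Id3 was not tested. Acvrl1, another receptor of this family, rose in parental cells at 18 h by 1.16 (adjusted p = 0.00736). Its level was low, with a mean of 0.677 CPM at 0 h (17 and 18 counts) and 1.55 CPM at 18 h (19 and 27 counts).

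Of 19 genes of the Egr and ERK route to Id3, 16 were tested, and 2 rose and 1 fell in parental cells at 6 h, where 7.34% of all genes were called. Egr3, an activator of Id3 in thymocytes, had 20.7 and 25.5 CPM in parental cells at 0 h and 7.08 and 8.67 CPM at 6 h, and fell by 1.55 on the log2 scale (adjusted p = 0.00551). In #A-59 it fell by 1.59 (adjusted p = 0.00864), from 15.1 and 17.1 CPM to 5.49 and 5.13 CPM. In #B-20 it had 13.6 and 14.4 CPM at 0 h, then 12.5 and 10.2 CPM at 6 h, a change of -0.30 that did not pass (adjusted p = 0.748). The difference in response of Egr3 between #B-20 and parental cells was 1.25 with an adjusted p of 0.442. At 18 h its mean was 19.1 ± 8.88 CPM (SD, n = 2) in parental cells, against 23.1 CPM at 0 h. In #A-59 the 18 h mean was 30.8 ± 14.6 CPM against 16.1, and in #B-20 24.2 ± 3.62 CPM against 14. The part of Egr3 in the course of Id3 was not tested. Egr1, named after its values were seen, varied widely between replicates, with 92.2 and 21.4 CPM in parental cells at 18 h, and was lower in #A-59 than in parental cells at 0 and 6 h (adjusted p = 0.00827 and 0.0081).

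Other genes of this route rose. Dusp6, an ERK phosphatase that ERK itself switches on, rose at 18 h in all 3 genotypes, by 1.85 for parental cells, 1.49 for #A-59 and 1.64 for #B-20. Elk3, a ternary complex factor, rose at 6 h in parental cells (1.95, adjusted p = 1.22e-06) and #B-20 (1.07, adjusted p = 0.00864). In #A-59 its 6 h change was 0.26 (adjusted p = 0.455). Nab2, which restrains Egr factors, was lower in both untreated clones (-1.48 and -1.74) and rose at 6 h in all 3 genotypes, by 1.11 for parental cells, 1.86 for #A-59 and 2.05 for #B-20.

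Among 19 cofactors and turnover factors of E and Id proteins 18 were tested, and 2 fell in parental cells at 6 h, where 7.34% of all genes were called. Lmo2, a LIM domain protein that sits in complexes with E proteins, had 60.5 and 80.4 CPM in parental cells at 0 h, then 27.1 and 28.7 CPM at 6 h and finally 124 and 118 CPM at 18 h. Like Id3 it thus had its lowest values at 6 h and its highest at 18 h. It fell at 6 h with log2 changes of -1.33 (parental), -1.42 (#A-59) and -0.68 (#B-20), at adjusted p-values of 4.81e-06, 5.26e-06 and 0.00976. It was higher in the clones at each time, by 0.99 to 1.95. Kat2a, an acetyltransferase that E proteins recruit, fell at 18 h with log2 changes of -1.39, -1.22 and -0.76 in parental cells, #A-59 and #B-20. Tcf7l1, a Wnt pathway factor once also called TCF3 and not the E protein gene of that symbol, had 0 to 3 counts in the parental libraries, 28 to 90 in #A-59 and 5 to 19 in #B-20.

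Few of the other helix-loop-helix partners passed the filter, but some of these were well expressed. Of 15 genes that pair with E or Id proteins, or are of that class, 4 passed the filter on low counts, and Id4 was among the 11 that did not. Beside Bhlhe40 these were Bhlhe41, Lyl1 and Bhlha15, named here after their values were seen. Group means were 286 to 421 CPM for Bhlhe41, 87.3 to 161 CPM for Lyl1 and 7.09 to 14.1 CPM for Bhlha15. Bhlhe40, a repressor that binds E-boxes, was lower in both clones at each time (log2 -2.78 to -1.24), with means of 16.8 to 32.4 CPM in parental cells and 3.52 to 7.06 CPM in the clones. It rose in parental cells at 6 h (0.88, adjusted p = 0.00937) and in #B-20 at 18 h (1.02, adjusted p = 0.0093).

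**Figure D5:**
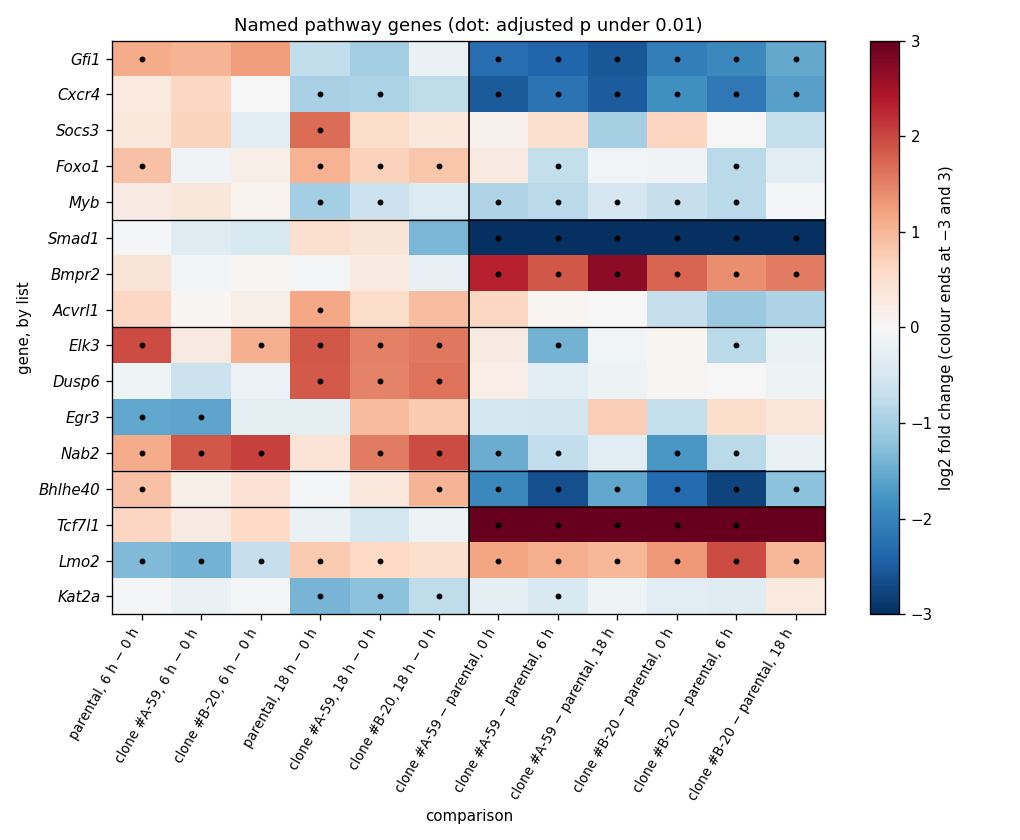
log2 fold changes of 16 named genes from the lists of E protein targets, BMP and Smad genes, Egr and ERK genes, other helix-loop-helix genes and cofactors (rows, separated by lines), for the response of each genotype at 6 and 18 h (left) and each clone against parental cells (right); colours end at -3 and 3 and dots mark an adjusted p under 0.01. Gfi1, Cxcr4, Smad1 and Bhlhe40 were lower and Bmpr2 and Lmo2 higher in both clones at all 3 times.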

How the data were processed

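The authors made non-stranded mRNA libraries, sequenced them single-end, used STAR for alignment to GRCm38 and featureCounts for counting per Ensembl gene (versions 2.5 and 1.5.0-p1 per the submitters' notes). The deposited values are whole-number counts per gene, not normalized. Each library was assigned by its label. The labels do not say which crRNA made which clone, and the 2 replicates of a group are independent experiments per the study's methods.

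From these counts, a quasi-likelihood model of all 18 libraries with 9 group means was fitted with edgeR 4.0.16 (R 4.3.3) after filterByExpr (15318 of 55487 genes kept) and TMM scaling. Responses, clones against parental cells, clones against each other and differences in response gave 22 comparisons, each adjusted by Benjamini-Hochberg over all genes tested. The DEG limits, adjusted p under 0.01 and a log2 change beyond 1 in either direction, are those of the study's methods. CPM are TMM-scaled, and levels are mean ± SD. Gene symbols, GC content and lengths come from GENCODE vM39, positions and promoter windows from RefSeq GRCm38.p6; 93.2% of genes had a symbol. No promoter window of Id1 or Tcf4 was used.

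The members and the gene lists were chosen with earlier results of these data known. Named genes are the 6 members, Tfeb, list genes that were DEGs the same way in both clones at 2 or more times or in parental cells at 6 or 18 h, and the 3 genes most alike to each tested member; markers, and genes that the report says were named after their values were seen, stand outside this rule. Library totals were 11223588 to 29655262 counts. A count of 0 allows up to 3 counts, which covers counting error only. Alternatives were DESeq2 1.42.0, its size factors, other filters (no minimum, or 10 counts in every library), a fit of only the groups compared, a replicate block, a lowess correction (span 0.5) on GC content, known for 99.2% of genes tested, and leaving out each library. The fits were tested on simulated data before use. Some items are not reported here.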

Additional observations from a re-analysis of the deposited data

Results flagged for a closer look

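Differences in response between a clone and parental cells with an adjusted p under 0.05 (edgeR) were picked out for the members and the listed genes. Among the members there was 1, the 6 h response of Id3 in #B-20, which differed from the parental one by 0.92 (adjusted p = 0.0232), with both parental 6 h libraries below both parental 0 h libraries, and overlapping values at these times in #B-20. Among E protein targets and B cell genes, the 6 h response of #A-59 differed from the parental one by 0.67 for Pax5 (adjusted p = 0.00579), 0.59 for Cd79b (adjusted p = 0.0182), 0.42 for Spib (adjusted p = 0.0459) and -0.98 for Foxo1 (adjusted p = 0.0445). Elk3 of the ERK route differed by -1.69 in the same comparison (adjusted p = 0.00345). At 18 h the response of #B-20 differed by 1.55 for Nab2 (adjusted p = 0.005) and by 0.63 for Kat2a (adjusted p = 0.0462). With 2 libraries per group, no group was large enough to test a single library as an outlier.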

How the results depend on the processing

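No called value of a member changed sign among 1398 recomputed values, and 89 values that were not called did. The number of DEG calls among members in the responses, 4 over 9 comparisons, was 8 without a filter on low counts and 3 to 7 when 1 library was left out (7 without replicate 2 of #B-20 at 18 h). Between clones and parental cells, 2 DEG calls became 1 with the GC correction and 0 to 4 when 1 library was left out (0 without replicate 2 of parental cells at 6 h, 4 without replicate 2 of #B-20 at 18 h), and 7 calls without a fold limit became 4 to 9 (4 without either parental 18 h library). For differences in response, 0 calls without a fold limit (4 of 20 at an unadjusted p under 0.05 in edgeR) became 1 with DESeq2, without a filter, and with the GC correction alone or with the replicate block, and 0 to 1 when 1 library was left out (1 without either #A-59 6 h library). Between clones, 0 DEG calls (9 of 15 at an unadjusted p under 0.05 in edgeR) became 1 with the GC correction alone or with the replicate block and 0 to 1 when 1 library was left out (1 without replicate 1 of #A-59 at 6 h or replicate 2 of #B-20 at 18 h), and 3 calls without a fold limit became 5 without a filter. The cause of these shifts was not tested.

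Replicate numbers were not used to pair the samples in the main model. The labels do not say whether same-numbered libraries share an experiment. Over 36 pairs of groups, same-numbered libraries had correlated deviations of -0.0258 to 0.32 (median 0.0777), above 0.1 in 14. With the replicate block, DEG calls were 6 in the responses and 3 between clones and parental cells, and calls without a fold limit were 19 and 9. DESeq2's size factors in place of TMM moved the levels of libraries by 0.993 to 1.01 times. Depth limits Id1 and Id2 most, with 0 to 8 and 14 to 175 counts in a library.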
